A study of Mus musculus with 12 samples.

Results

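The cytosolic ribosomal protein (RP) genes encode the protein part of the ribosome, and their RNA was read in autophagy-deficient 562 vascular tumor cells. They were taken from the deposited tables as the genes whose symbol starts with Rpl or Rps and whose full name starts with ribosomal protein, without kinases and pseudogenes. The rule found 83 of the 14851 genes listed. By role they were 42 proteins of the large (60S) subunit, 31 of the small (40S) subunit, 3 of the ribosomal stalk, 5 paralogs of a subunit, 1 retrotransposed copy (Rpl37rt) and 1 protein that binds a subunit without being one (Rps19bp1).

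562 cells are a spontaneously immortalized line grown from cutaneous vascular tumors of C57BL/6 mice whose floxed Tsc1 alleles (Tsc1 f/f;Scl-Cre) had been deleted by tamoxifen. The control cells, whose genotype the labels give as wildtype, come from the same Tsc1-deleted line. Tsc1 RNA was read in all 12 libraries (2.59 to 7.01 RPKM) and was lower in Atg5 KO (log2 fold change −0.51, limma adjusted p = 0.0649), and a total over a gene does not show whether a part of it is deleted. Control cells carried an sgRNA against EGFP, and the KO cells carried sgRNAs against Fip200, Atg5 or Atg7, all delivered by lentivirus with puromycin selection, so each KO derives from 1 parental line. The study describes more than 1 clone of Fip200 KO cells, and the labels do not say which of them gave the 3 libraries. RNA-sequencing of 3 samples of each group gave 12 libraries of directional RNA, with between 17264989 and 23627944 reads on the listed genes. The study describes the replicates as independent, and p-values measure the spread between these samples.

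The labels call the cells lymphatic endothelial cells. The endothelial genes Pecam1 (265 to 539 RPKM) and Cdh5 (116 to 805 RPKM) and the lymphatic genes Lyve1 (60.6 to 393 RPKM) and Flt4 (31.7 to 101 RPKM) were read in all 12 libraries, while Prox1, the transcription factor that defines lymphatic endothelium, was at 0.0366 to 5.79 RPKM. RPKM is the number of reads per kilobase of gene, scaled to the reads of the library. RNA of the targeted gene lay below the control range only for Atg7 (2.64 to 8.34 RPKM in Atg7 KO against 18.4 to 25.0 RPKM in control). Rb1cc1, which encodes FIP200, was at 2.06 to 6.84 RPKM in Fip200 KO against 6.43 to 8.27 RPKM in control, and Atg5 at 8.53 to 15.5 RPKM in Atg5 KO against 10.6 to 14.2 RPKM in control, so both overlapped.

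RP genes are among the most highly transcribed genes of growing cells. Their mRNAs begin with a 5′ terminal oligopyrimidine (TOP) tract, a C followed by further pyrimidines at the cap, and the kinase complex mTORC1, which the Tsc1-Tsc2 complex restrains, promotes the translation of such mRNAs through LARP1. FIP200 is part of the complex that starts autophagosome formation, ATG5 and ATG7 belong to the machinery that conjugates LC3 to the membrane, and ribosomes are among the cargo that autophagy can degrade.

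The bases around the annotated transcription start are shown for members on which the results turn, because the TOP tract lies there. The sequences come from the RefSeq start sites of GRCm38.p6, 62 of the 83 genes were found in that table, and 73 start sites belong to them. Each line gives 30 bases, the 11th being the annotated start, and capitals mark a run of at least 5 pyrimidines that begins with C within 10 bases of the start. The run is counted from a C, so other pyrimidines can precede the capitals, as in Rpl22l1 and in Rplp2, where they begin at the annotated start.
Rps2, chr17:24720053-24720082, plus strand: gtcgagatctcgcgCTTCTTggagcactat
Rps6, chr4:86857348-86857377, minus strand: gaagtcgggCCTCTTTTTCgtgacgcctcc
Rps12, chr10:23787190-23787219, minus strand: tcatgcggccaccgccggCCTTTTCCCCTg
Rplp2, chr7:141447641-141447670, plus strand: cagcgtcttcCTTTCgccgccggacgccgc
Rpl22l1, chr3:28805498-28805527, plus strand: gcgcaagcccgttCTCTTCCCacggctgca
Rpsa, chr9:120127756-120127785, plus strand: ttatttaaggacgtcatttccggccgcccg
Rpl5, chr5:107900518-107900547, plus strand: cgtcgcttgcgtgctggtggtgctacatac

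A run of this kind was found at 38 of the 73 start sites of RP genes (52.1%) and at 30.7% of all 32851 start sites in the table. Rpsa and Rpl5 are shown as members without one at the annotated start. In the 300 bases around the start (250 before it), 34.2% of the RP start sites and 8.86% of all held CCGGAAG, the core of the ETS motif, on either strand. The core of the YY1 motif, AAGATGGC, was held by 11.0% of the RP start sites and 2.75% of all, and the palindromic core of the NRF1 motif by 2.74% and 0.971%. TATAAA was the reverse, with 9.59% of the RP start sites and 13.6% of all. The ETS core stands in capitals in 3 members that are described further below, as its reverse complement in Rps2 and Rpsa.
Rps2, chr17:24719926-24719952, plus strand: tttatacgtcCTTCCGGctggtgtagg
Rpsa, chr9:120127568-120127594, plus strand: gccccagctaCTTCCGGcctggggtct
Rps6, chr4:86857442-86857468, minus strand: taatctacgcCCGGAAGtaacgcccct

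These matches describe letters in a window. For the 36 members with a run at an annotated start, the median of the log2 fold changes against control was 0.37 (Atg5 KO) and 0.42 (Atg7 KO), and for the 26 members without one it was 0.25 and 0.42. In Fip200 KO the order was the reverse, with 0.19 and 0.27. The 20 tested members that the table lacks had medians of 0.41 (Atg5 KO), 0.56 (Atg7 KO) and 0.24 (Fip200 KO).

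RP RNA took a large part of every library. The 83 genes held between 2.25% and 3.80% of the reads and, because most are short (median length 740 bases against 2969 for all genes), between 7.22% and 12.1% of the summed RPKM. Of the members, 38 were among the 100 genes with the highest mean RPKM, and 71 had a mean of at least 100 RPKM over the 12 libraries. The highest were Rps2, a protein of the 40S subunit at the mRNA entry (mean 1575 RPKM), Rplp1, an acidic protein of the stalk (1336 RPKM), and Rpl41, the smallest RP (1218 RPKM).

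The lowest members were Rps4l, a paralog of Rps4x with at most 2 reads in a library, Rpl37rt (mean 1.19 RPKM) and Rpl34 (1.43 RPKM), followed by Rpl30 (1.54 RPKM) and Rps27 (3.25 RPKM). Rpl34, Rpl30 and Rps27 encode subunits of the ribosome, yet no library held more than 76 reads of any of them. Levels of genes that share reads with near-identical copies are uncertain here, since the sources do not say how the counting treated such reads. RP genes have many such copies, and 4 RP pseudogenes were listed beside the members. Rps15a (33.0 RPKM), Rps20 (81.0 RPKM) and Rpl22 (44.0 RPKM) were also low per length, but their reads were divided by 5134, 3446 and 4450 bases and numbered 2485 to 4205 for Rps15a.

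RP RNA was higher in Atg5 KO and Atg7 KO cells than in control cells as a group, by a modest and uneven amount. In control cells it took 7.83%, 8.11% and 7.22% of the summed RPKM (7.72% ± 0.46, SD, n = 3). Atg5 KO libraries gave 10.2%, 9.83% and 10.8%, and Atg7 KO libraries 11.8%, 10.9% and 10.5%, all 6 above every control. Fip200 KO libraries gave 8.52%, 8.40% and 12.1%, so that replicate 3 stood apart from the other two while all 3 were above the control range. RPKM values are relative to the library, and in bulk RNA a change in the mixture of cells and a change of RNA per cell cannot be told apart.

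The same spread was seen gene by gene. Against the control mean of each gene, on log2 of RPKM plus 0.5, the median of the 82 members tested was 0.38, 0.34 and 0.44 in the Atg5 KO libraries and 0.55, 0.41 and 0.40 in the Atg7 KO libraries. In the Fip200 KO libraries it was 0.20, −0.06 and 0.53, and in the control libraries −0.01, 0.12 and −0.10. The corresponding medians of all genes tested lay between −0.06 and 0.05. Fip200 KO replicate 3 was the highest of its group for 67 of 82 members and replicate 2 the lowest for 55, and control replicate 2 was the highest control for 61. Control replicates 2 and 3 also held Dcn, a fibroblast gene, at 56.9 and 15.2 RPKM against at most 0.989 RPKM in the other libraries, and the summed RPKM of 5 fibroblast and mural genes was 1.11 to 70.7 in control and 1.41 to 16.0 in the KO libraries. The summed RPKM of leukocyte genes (2 of 3 listed, Cd68 and Ptprc) was lower in Atg5 KO (9.94 to 11.7 RPKM) and Atg7 KO (6.95 to 27.1 RPKM) than in control libraries (34.4 to 91.7 RPKM), with 15.9 to 263 RPKM in Fip200 KO. Cd68, a lysosomal protein of macrophages, made up most of that sum, and Ptprc, which defines leukocytes, was at no more than 0.129 RPKM. The summed RPKM of 5 lymphatic genes was higher in Atg5 KO (389 to 498) and Atg7 KO (379 to 489) than in control (262 to 362), with 219.9 to 821 in Fip200 KO. Lyve1 carried most of that difference (60.6 to 179.5 RPKM in control, 191 to 293 in Atg5 KO and 186 to 290.0 in Atg7 KO), while Pdpn overlapped. Flt4 was higher in Atg5 KO (73.2 to 101 RPKM against 31.7 to 65.2 RPKM in control) and overlapped in Atg7 KO. The summed RPKM of 6 endothelial genes overlapped too, at 970.4 to 2365 in control, 1545 to 2118 in Fip200 KO, 2030.4 to 2468 in Atg5 KO and 1659.9 to 2507 in Atg7 KO. Of these genes, Cdh5 was higher in Atg5 KO (443 to 571) and Atg7 KO (361 to 805) than in control (116 to 310). Tie1 was higher in Atg5 KO (233 to 267 against 89.2 to 212 in control) and overlapped in Atg7 KO. Their part in the results was not tested.

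**Figure D1:**
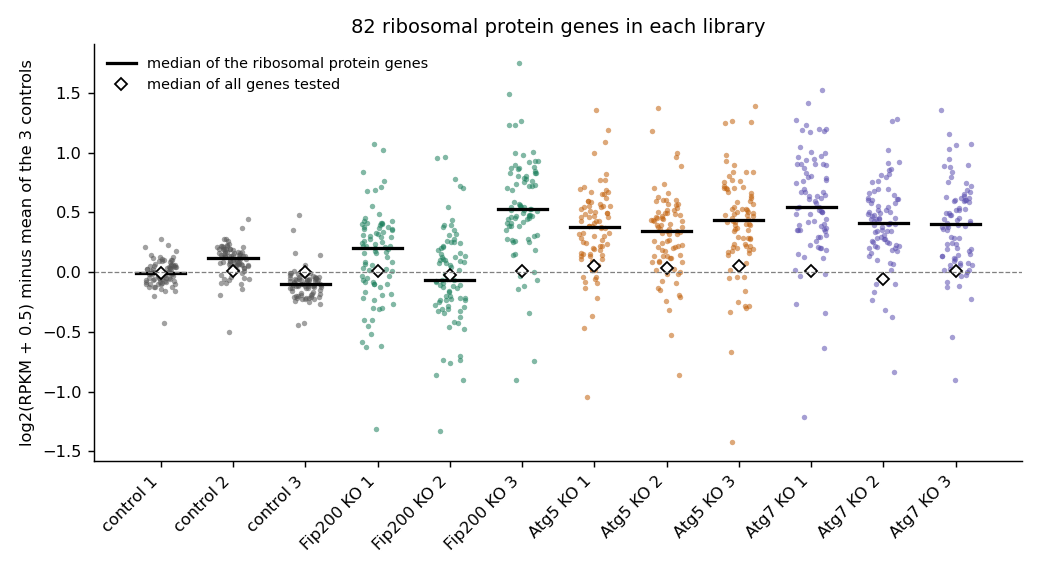
The difference of log2(RPKM + 0.5) from the mean of the 3 controls (vertical axis, log2 scale) is plotted for 82 RP genes in each of the 12 libraries. Black lines mark the median of the RP genes, which is between 0.34 and 0.55 in the 6 Atg5 KO and Atg7 KO libraries, and diamonds mark the median of all genes tested.

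In Atg5 KO cells, 46 of the 82 members tested rose and 3 fell against control (limma, adjusted p of at most 0.1, Benjamini-Hochberg over all genes tested). Of all genes tested, 22.9% rose and 18.7% fell by this rule. The median log2 fold change of the members was 0.39, or 1.31-fold, and 0.06 over all genes, with 72 of 82 members above 0. In 55 members all 3 Atg5 KO libraries lay above all 3 controls, as did 28.4% of all genes, and in 5 they lay below (22% of all genes). A log2 fold change of at least 1 was reached by 3 of the members that rose and 1 that fell, where 4.31% and 6.94% of all genes did. At an unadjusted p under 0.05, 47 members were higher and 3 lower (24.2% and 19.6% of all genes).

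In Atg7 KO cells, 38 members rose and 1 fell, where 11.3% of all genes rose and 13.7% fell. The median log2 fold change of the members was 0.44, or 1.36-fold, and −0.01 over all genes, with 76 of 82 members above 0. In 55 members the Atg7 KO libraries lay above the controls without overlap (19.2% of all genes) and in 1 below (20.4%). A log2 fold change of at least 1 was reached by 4 members, all of them higher, where 3.29% of all genes rose and 6.81% fell by that much. At an unadjusted p under 0.05, 50 members were higher and 1 lower (15.7% and 18% of all genes). The comparisons of the 3 KO share the same control libraries.

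In Fip200 KO cells no member rose and 1 fell by the same test, where 0.356% of all genes rose and 1.69% fell. That member, Rpl22l1, also reached a log2 fold change of −1, as 1.64% of all genes did, and 0.347% rose by as much. Unadjusted p-values under 0.05 were found for 7 members above and 1 below control (6.61% and 9.52% of all genes), and limma-voom on the recovered reads also gave 0 higher and 1 lower. With all 12 libraries in 1 fit, Rpsa (0.89) and Rpl32 (0.74) were higher and Rpl22l1 lower, where 3.47% of all genes were higher. The median log2 fold change was 0.23 with 64 of 82 members above 0, and over all genes it was 0.02. The groups did not overlap for 16 members above control and 2 below, where 11.7% and 12.4% of all genes did so.

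These counts rested on single libraries to different degrees. The Atg5 KO count of 49 changed members was 32 without Atg5 KO replicate 1, where 12.2% of all genes were higher, and with all 12 libraries in 1 fit 22 rose and 1 fell (9.83% of all genes higher). Without any 1 other library it stayed within 1.5 times. Atg5 KO replicates 1 and 2 were the most alike pair of any group, with a chi-square of 8.66 per degree of freedom against at least 51.4 for the others. Without Atg5 KO replicate 2 the count was 39, where 13.9% of all genes were higher and 12.8% lower. The Atg7 KO count of 39 was 4 without control replicate 3, 9 without Atg7 KO replicate 1, 16 without control replicate 2 and 17 without control replicate 1 or Atg7 KO replicate 3. The share of all genes that were higher fell with it, to 2.42%, 3.11%, 4.39%, 8.37% and 5.7% in that order. The single change in Fip200 KO was lost without any 1 of the controls or of Fip200 KO replicates 1 and 2, and 3 members passed without replicate 3 (Rpsa and Rpl22l1, described further below, and Rps4x, which fell by 0.68 with an adjusted p of 0.0954), where 1.93% of all genes were higher and 4.52% lower. The median log2 fold change stayed above 0 in all of these fits, at 0.07 to 0.33 in Fip200 KO, 0.34 to 0.44 in Atg5 KO and 0.40 to 0.51 in Atg7 KO cells.

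The library names carry a prefix that does not follow the groups evenly. Control replicate 1 and the Fip200 KO libraries share the prefix FY, control replicates 2 and 3 and Atg5 KO replicates 1 and 2 share JG, and Atg5 KO replicate 3 and the Atg7 KO libraries share Yang. Within JG, the members had a median log2 difference of 0.36 between Atg5 KO and control, and 59 of 82 (72.0%) lay above without overlap against 39.5% of all genes. Within FY the median was 0.24 between Fip200 KO and control, with 1 control library. Within Yang it was 0.02 between Atg7 KO and the 1 Atg5 KO library, and no control has this prefix. With the prefix as a term in a fit of all 12 libraries, 3 members passed in Atg5 KO (Rpsa, log2 fold change 1.04, Rps2, 1.15, and Rpl30, 1.45) and none in Fip200 KO or Atg7 KO cells by limma, the medians being 0.36, 0.24 and 0.35. Of all genes, 2.73% were higher in Atg5 KO, 0.0163% in Fip200 KO and 0.0654% in Atg7 KO in that fit. Its Atg7 KO value rests on the Atg5 KO libraries, which carry both JG and Yang.

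**Figure D2:**
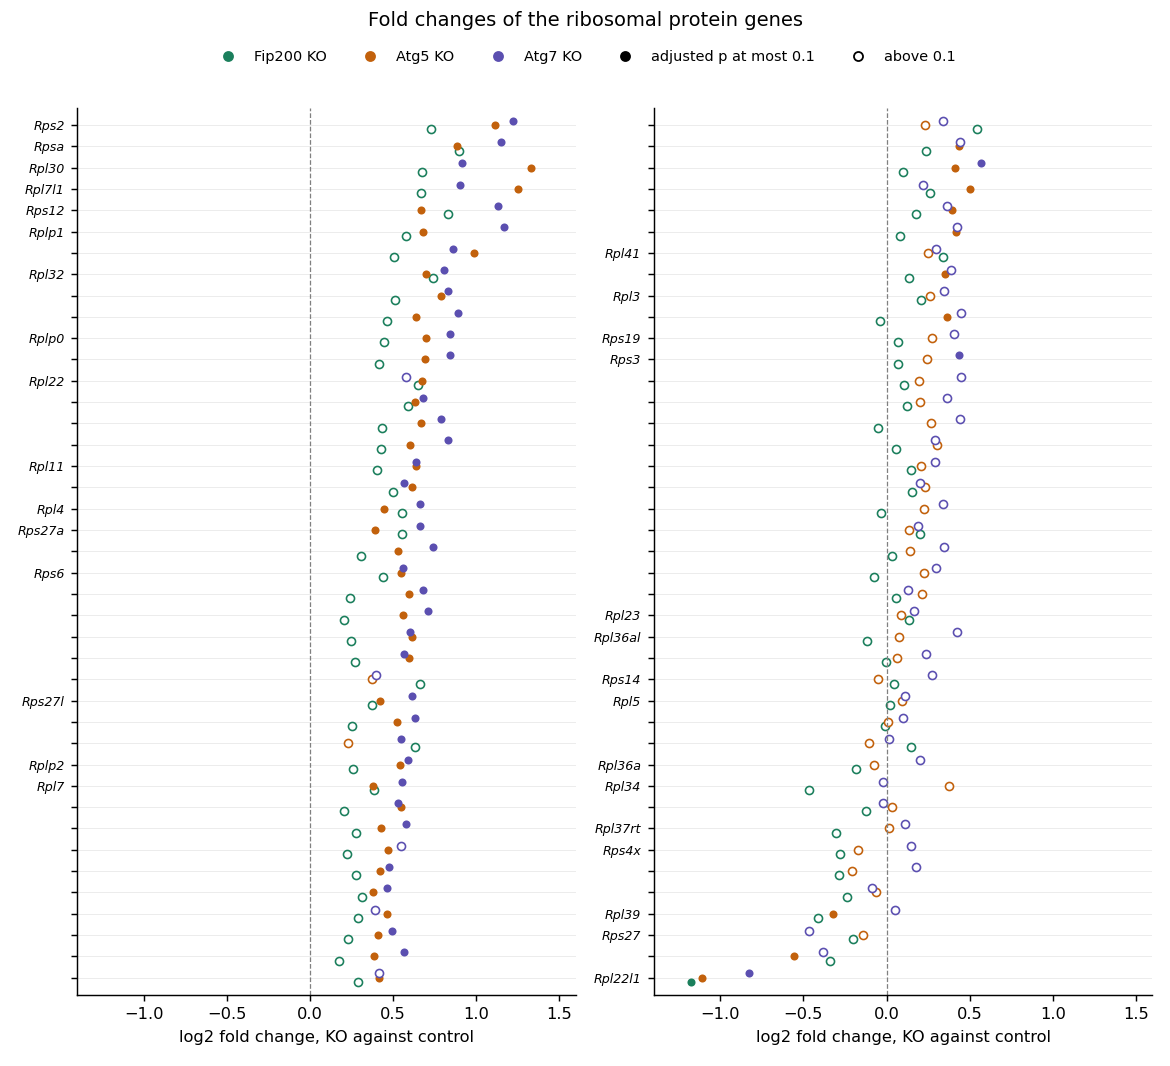
Log2 fold changes of the 82 RP genes tested (horizontal axis) against control in the 3 KO, ordered by their mean, with filled points where the adjusted p was 0.1 or less. Labels mark genes described by name. Most points lie right of 0, and Rpl22l1 stands at the lower end with −1.18, −1.11 and −0.83.

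Among the 40S genes, 19 of 31 rose in Atg5 KO cells and 16 in Atg7 KO cells, and none fell, where 22.9% and 11.3% of all genes rose and 18.7% and 13.7% fell. The median log2 fold changes were 0.41 and 0.49. Rps2 (gene ID 16898) had 1004, 853 and 765 RPKM in control, 1092, 1688 and 1618 RPKM in Fip200 KO, 1849.7, 1736 and 2065 RPKM in Atg5 KO and 2492, 1505 and 2231 RPKM in Atg7 KO. All 9 KO libraries lay above the controls. The log2 fold change was 1.11 in Atg5 KO (standard error 0.145, limma adjusted p = 0.00538), 1.22 in Atg7 KO (standard error 0.234, adjusted p = 0.0228) and 0.73 in Fip200 KO (adjusted p = 0.26). The Atg7 KO value was 1.13 (adjusted p = 0.101) without control replicate 3.

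Rpsa (gene ID 16785) encodes a 40S protein also known as a laminin receptor. It had 388, 379.9 and 312 RPKM in control, 641, 697 and 660.4 RPKM in Fip200 KO, 714, 699 and 583 RPKM in Atg5 KO and 864, 726 and 796 RPKM in Atg7 KO. Each of the 9 KO libraries was above the highest control. The log2 fold change was 0.89 in Atg5 KO (standard error 0.139, limma adjusted p = 0.00775), 1.15 in Atg7 KO (standard error 0.161, adjusted p = 0.0116) and 0.89 in Fip200 KO (standard error 0.201, adjusted p = 0.112). In Fip200 KO it passed without replicate 3 (0.90, adjusted p = 0.0717) and with all 12 libraries in 1 fit (0.89, adjusted p = 0.0142).

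Rps12 (gene ID 20042), a protein of the head of the 40S subunit, had 573, 608 and 457 RPKM in control and 1233, 1302 and 1043 RPKM in Atg7 KO. The Fip200 KO libraries were far apart, at 551, 894 and 1824 RPKM. It rose by 1.13 on the log2 scale in Atg7 KO (standard error 0.18, limma adjusted p = 0.0159), and Atg5 KO cells gave 0.67 (adjusted p = 0.0169). The value of 0.83 for Fip200 KO did not pass (adjusted p = 0.388).

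Rps6 is the substrate by which S6 kinase activity is usually read. It had 319, 309 and 294 RPKM in control, 430.3, 421 and 499 RPKM in Atg5 KO and 563, 352 and 465 RPKM in Atg7 KO, with no overlap. Atg5 KO gave a log2 fold change of 0.55 (limma adjusted p = 0.015), Atg7 KO one of 0.56 (adjusted p = 0.0978) and Fip200 KO one of 0.44 (adjusted p = 0.409). The Atg7 KO call was lost without any 1 library other than Atg7 KO replicate 2, with adjusted p between 0.165 and 0.252. Rps27a, made as a fusion with ubiquitin, rose by 0.39 and 0.66 in the same order (adjusted p = 0.047 and 0.03). Its calls were lost without control replicate 3 or any 1 Atg5 KO library (adjusted p up to 0.126), and without control replicate 3 or Atg7 KO replicate 1 (up to 0.132).

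Other 40S genes had smaller values. Rps3, which also acts in DNA repair, was at 0.25 in Atg5 KO cells (limma adjusted p = 0.118) and rose by 0.44 in Atg7 KO cells (adjusted p = 0.079, but 0.109 to 0.231 without any 1 library other than Atg7 KO replicate 2). Rps19, mutated in Diamond-Blackfan anemia, was at 0.27 and 0.41, neither of which passed. Rps14 was at −0.05 and 0.27, and Rps4x at −0.17 and 0.15. Rps27 had few reads, with log2 fold changes of −0.14 and −0.47 in Atg5 KO and Atg7 KO cells and −0.20 in Fip200 KO cells, none of which passed.

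**Figure D3:**
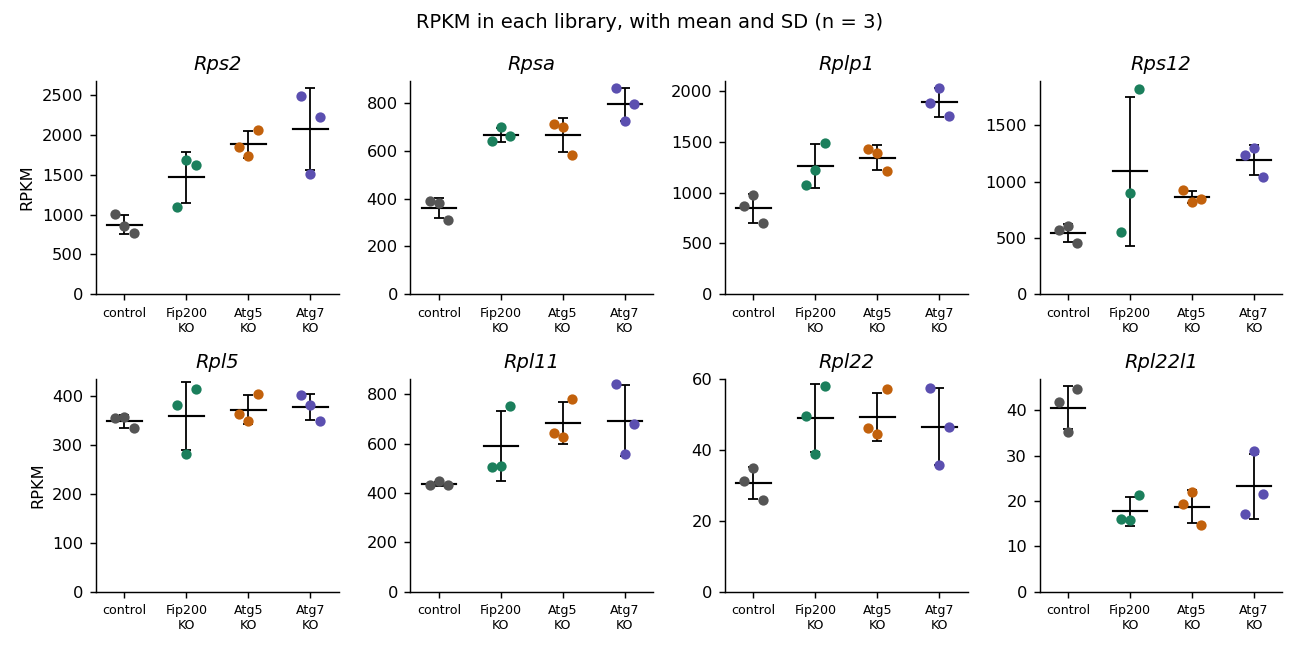
RPKM of 8 RP genes in each library (points), with the mean and SD of the 3 libraries of a group (bars). Rps2, Rpsa and Rplp1 are higher in all KO libraries than in control, Rpl5 overlaps between all groups, and Rpl22 and Rpl22l1 lie on opposite sides of control.

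Every gene of the stalk, the flexible arm that recruits translation factors, rose in Atg5 KO and Atg7 KO cells. Rplp1 (gene ID 56040) had 865, 978 and 696 RPKM in control, 1070.2, 1223 and 1491 RPKM in Fip200 KO, 1434, 1394 and 1209 RPKM in Atg5 KO and 1885, 2033 and 1751 RPKM in Atg7 KO. The 3 Atg7 KO libraries were above all others. The log2 fold change was 1.17 in Atg7 KO (standard error 0.184, limma adjusted p = 0.0151) and 0.68 in Atg5 KO (standard error 0.159, adjusted p = 0.0225). Rplp0, the base of the stalk, rose by 0.70 and 0.84 (adjusted p = 0.0189 and 0.028, the latter 0.119 without control replicate 3), and Rplp2 by 0.54 and 0.59 (adjusted p = 0.0245 and 0.047). The Rplp2 call in Atg7 KO was lost without control replicate 1 or 3 or Atg7 KO replicate 1 or 3 (adjusted p up to 0.165). In Fip200 KO their log2 fold changes were 0.58, 0.45 and 0.26 for Rplp1, Rplp0 and Rplp2, and none passed.

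Among the 60S genes, 21 of 42 rose and 2 fell in Atg5 KO, and 16 rose and none fell in Atg7 KO cells, with medians of 0.37 and 0.43 on the log2 scale. The shares of all genes are those given for the 40S genes (22.9% higher and 18.7% lower, 11.3% and 13.7%). Rpl5 and Rpl11 form a particle with 5S rRNA that also binds Mdm2, the ligase of p53. Rpl11 had 434, 448 and 432 RPKM in control and rose in Atg5 KO (644, 628 and 782 RPKM, log2 fold change 0.64, limma adjusted p = 0.0128) and in Atg7 KO (843, 557 and 678 RPKM, 0.64, adjusted p = 0.0609). The call in Atg7 KO was lost without any 1 library other than Atg7 KO replicate 2 (adjusted p between 0.13 and 0.177). Rpl5 had 355, 356 and 333 RPKM in control, 364, 349 and 404 RPKM in Atg5 KO and 401, 382 and 348 RPKM in Atg7 KO. The 95% interval of its log2 fold change ran from −0.16 to 0.34 in Atg5 KO and from −0.21 to 0.44 in Atg7 KO.

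Rpl4, which lines the exit tunnel, rose by 0.45 in Atg5 KO (limma adjusted p = 0.0547) and 0.66 in Atg7 KO (adjusted p = 0.0602). These calls were lost without control replicate 3 or Atg5 KO replicate 1 or 2 (adjusted p up to 0.181), and without any 1 control or Atg7 KO replicate 1 (up to 0.197). Rpl32 rose by 0.70 and 0.80 (adjusted p = 0.015 and 0.062), the latter lost without any 1 library other than Atg7 KO replicate 2 (adjusted p between 0.105 and 0.196). Rpl3, near the peptidyl transferase centre, was at 0.26 and 0.35, and Rpl23, another RP that binds Mdm2, at 0.09 and 0.16, and neither passed. Rpl41 had 979, 1096 and 972 RPKM in control and 971, 1066 and 2038 RPKM in Fip200 KO, and passed in no KO. Rpl30 rose in Atg5 KO (log2 fold change 1.33, adjusted p = 0.00929) at 34, 37 and 35 reads against 11, 15 and 5 in control, a level that is uncertain for the reasons given above.

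Rpl39, a small protein at the exit tunnel, fell in Atg5 KO cells. It had 290.2, 351 and 297 RPKM in control, 241, 250.3 and 256 RPKM in Atg5 KO and 259, 425 and 306 RPKM in Atg7 KO, which overlapped control. The log2 fold change in Atg5 KO was −0.32 (limma adjusted p = 0.0693), a call that was kept only without control replicate 1 (adjusted p = 0.07) and otherwise gave an adjusted p between 0.104 and 0.211 without 1 library. In Atg7 KO it was at 0.05 (adjusted p = 0.878).

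Rpl22 and its paralog Rpl22l1, which can take its place in the 60S subunit, lay on opposite sides of control. Rpl22l1 (gene ID 68028) had 41.8, 35.3 and 44.6 RPKM in control, 16.0, 15.8 and 21.4 RPKM in Fip200 KO, 19.4, 21.9 and 14.8 RPKM in Atg5 KO and 17.2, 31.1 and 21.4 RPKM in Atg7 KO. All 9 KO libraries lay below the controls, and it was the member that fell in each KO. By limma, Fip200 KO gave a log2 fold change of −1.18 ± 0.207 (± standard error of the fit, adjusted p = 0.0671), Atg5 KO one of −1.11 ± 0.172 (adjusted p = 0.00754) and Atg7 KO one of −0.83 ± 0.233 (adjusted p = 0.0574). In Fip200 KO its adjusted p was 0.2, 0.27 and 0.459 without control replicate 1, 2 and 3, and 0.113 and 0.168 without Fip200 KO replicate 1 and 2. In Atg7 KO it lay between 0.107 and 0.179 without any 1 library other than Atg7 KO replicate 2.

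Rpl22 (gene ID 19934) had 31.3, 35.1 and 26.0 RPKM in control, 49.6, 39.1 and 58.2 RPKM in Fip200 KO, 46.4, 44.6 and 57.2 RPKM in Atg5 KO and 57.6, 35.8 and 46.6 RPKM in Atg7 KO. Its libraries lay above the controls in all 3 KO, and it rose in Atg5 KO (log2 fold change 0.67, limma adjusted p = 0.0206), while the values of 0.65 in Fip200 KO (adjusted p = 0.222) and 0.58 in Atg7 KO (adjusted p = 0.108) did not pass. Per length, Rpl22l1 RNA was 1.34, 1.01 and 1.72 times that of Rpl22 in the control libraries. In Fip200 KO libraries the ratio was 0.322, 0.404 and 0.367. Atg5 KO libraries gave 0.418, 0.493 and 0.258, and Atg7 KO libraries 0.299, 0.867 and 0.459. No KO library reached the lowest control ratio.

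Of the other paralogs, Rpl7l1 (gene ID 66229), a nucleolar relative of Rpl7, had 43.1, 29.7 and 59.1 RPKM in control and 97.1, 96.2 and 111 RPKM in Atg5 KO, where it rose by 1.25 (standard error 0.238, limma adjusted p = 0.0126). In Atg7 KO it rose by 0.90 (adjusted p = 0.0857) at 99.7, 57.7 and 86.9 RPKM, a call that was lost without any 1 library other than Atg7 KO replicate 2 (adjusted p between 0.108 and 0.227). Rpl7 itself rose by 0.38 and 0.55 (adjusted p = 0.05 and 0.046), calls that were lost without control replicate 3 or Atg5 KO replicate 1 or 3 (adjusted p up to 0.133), and without control replicate 2 or 3 or Atg7 KO replicate 1 or 3 (up to 0.16). Rps27l, a p53 target, rose by 0.42 and 0.61 (adjusted p = 0.045 and 0.052), lost without control replicate 3 or Atg5 KO replicate 1 or 3 (up to 0.146), and without control replicate 1 or 3 or Atg7 KO replicate 1 (up to 0.175). Its RPKM was 21.8, 17.7 and 27.1 times that of Rps27 in control, 31.2, 27.03 and 43.7 times in Fip200 KO, 27.7, 32.9 and 38.6 times in Atg5 KO and 50.1, 66.2 and 35.2 times in Atg7 KO. All KO libraries but Fip200 KO replicate 2 thus lay above the controls, with 21 to 76 reads of Rps27. Rpl36al and Rpl36a were at 0.07 and −0.07 in Atg5 KO cells, with 0.43 and 0.20 for Atg7 KO, none of which passed. Rps4l was not tested, having no reads in 9 of the 12 libraries.

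No member passed the test between KO cells. In the fit of all 12 libraries, 0 of 82 members and 0 of 12233 genes passed in any of the 3 comparisons (0% in each direction), and limma-voom also gave 0 members. At an unadjusted p under 0.05, 3 members were higher in Atg5 KO than in Fip200 KO (4.36% of all genes), 8 higher in Atg7 KO than in Fip200 KO (3.26%) and 1 higher in Atg7 KO than in Atg5 KO (1.51%). None was lower, where 3.22%, 4.23% and 3.08% of all genes were. In the same order, 11, 10 and 14 members lay above without overlap and none below, where 8.44%, 3.86% and 5.38% of all genes lay above and 5.91%, 4.37% and 11.2% below. The median log2 difference was 0.16, 0.25 and 0.09 in that order, and 0.04, −0.02 and −0.05 over all genes. For Rps2 the 95% interval of the difference ran from −0.14 to 0.91 between Atg5 KO and Fip200 KO and from −0.41 to 0.64 between Atg7 KO and Atg5 KO.

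Without Fip200 KO replicate 3, 3 members were higher in Atg5 KO and 14 in Atg7 KO than in Fip200 KO, where 3.17% and 3.44% of all genes were higher. The 3 members, of 82 tested, are near the share of all genes.

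Other mRNAs that carry a TOP tract, those of translation factors and ribosome-associated proteins, were also read. Of 18 such genes, 9 rose and 3 fell in Atg5 KO and 5 rose and 2 fell in Atg7 KO, with medians of 0.26 and 0.33 on the log2 scale. Of all genes, 22.9% rose and 18.7% fell in Atg5 KO and 11.3% rose and 13.7% fell in Atg7 KO, so the falls were near the background share. The elongation factor genes Eef1d (0.70 and 0.90) and Eef1b2 (0.38 and 0.74) rose in both, as did Npm1, a nucleolar chaperone of ribosome assembly (0.96 and 1.02). Tpt1, the translationally controlled tumor protein, fell by 0.80 (limma adjusted p = 0.008) and 1.11 (adjusted p = 0.021) in Atg5 KO and Atg7 KO. Fau, which encodes the 40S protein eS30 fused to a ubiquitin-like protein, rose by 0.34 in Atg5 KO (adjusted p = 0.089) and was at 0.40 in Atg7 KO (adjusted p = 0.159). In Fip200 KO none of the 18 passed, at a median of 0.26.

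Genes that escort new RPs to the nucleus and into pre-ribosomes rose where they passed. Of 14, 6 rose in Atg5 KO and 7 in Atg7 KO, and none fell, where 22.9% and 11.3% of all genes rose and 18.7% and 13.7% fell. Grwd1, a chaperone of Rpl3, rose by 1.22 and 1.32 (limma adjusted p = 0.005 and 0.019), from 8.46, 8.30 and 9.02 RPKM in control to 19.7, 17.97 and 24.8 RPKM in Atg5 KO and 29.0, 16.0 and 23.3 RPKM in Atg7 KO. Heatr3, which helps to import Rpl5, rose by 1.33 and 1.47 (adjusted p = 0.029 and 0.034), and the importin gene Ipo7 by 0.71 and 0.90.

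Among 17 regulators of RP synthesis (16 tested outside Atg7 KO), 7 rose and 3 fell in Atg5 KO and 5 rose in Atg7 KO cells. Of all genes, 22.9% rose and 18.7% fell in the former and 11.3% rose in the latter, so the falls were at the background share. Mycn, 1 of those 5, entered the test only through the Atg7 KO libraries (0.580, 1.01 and 0.887 RPKM against at most 0.214 RPKM in control). Mlst8, a subunit of the mTOR complexes, rose by 0.86 and 0.60 and Rps6kb1, an S6 kinase gene, by 0.55 and 0.57. Akt1s1 (0.83 and 0.67) and Eif4ebp2 (0.57 and 0.63) rose in both too. In Atg5 KO alone, Mtor (0.52), Tsc2 (0.50) and Larp4 (0.45) also passed as higher, and Rps6kb2 (−0.40) and Tsc1 (−0.51) as lower. Eif4ebp1, the translation repressor that mTORC1 phosphorylates, fell by 1.07 in Atg5 KO (limma adjusted p = 0.023) and was at −0.56 in Atg7 KO (adjusted p = 0.185). Larp1 and Myc passed in no KO. Of 11 genes of ribosome turnover and surveillance, 3 rose and 1 fell in Atg5 KO and 2 rose and 1 fell in Atg7 KO. The shares that rose, 27.3% and 18.2%, are near those of all genes (22.9% and 11.3%), and the list medians were 0.14 and 0.00. Abce1, the recycling factor that splits ribosomes, was the gene that fell in both, by 0.98 and 0.96 (adjusted p = 0.004 and 0.016), from 147, 155 and 163 RPKM in control to 87.4, 77.0 and 71.7 RPKM in Atg5 KO and 72.9, 94.4 and 73.1 RPKM in Atg7 KO.

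The 77 genes of mitochondrial RPs build the separate ribosome of that organelle. In Atg5 KO cells 32 of them rose and 4 fell, with a median log2 fold change of 0.26, and in Atg7 KO cells 11 rose and 3 fell, with a median of 0.22. The share that rose was 41.6% in Atg5 KO, where 22.9% of all genes did, and 14.3% in Atg7 KO, near the 11.3% of all genes. In Fip200 KO none passed and the median was 0.20, against 0.23 for the cytosolic RP genes. Genes outside the RP list that are as short, under 1000 bases, had medians of 0.05 in Atg5 KO, 0.01 in Atg7 KO and −0.03 in Fip200 KO, where 62 of the 83 RP genes are of that length. The difference between these lists was not tested.

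**Figure D4:**
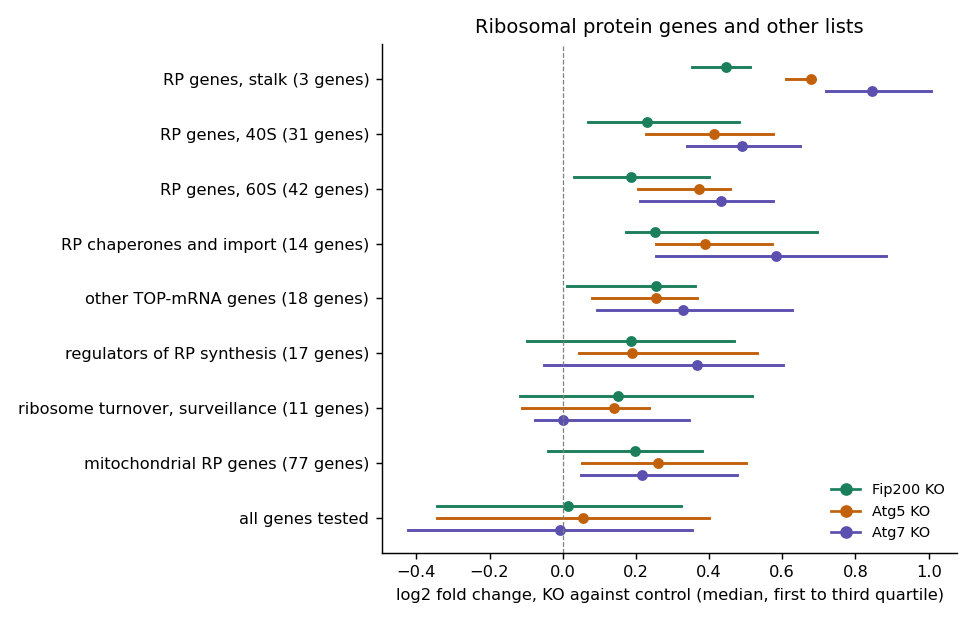
Median log2 fold change against control (points) and interquartile range (lines) of RP genes by subunit, of the other gene lists and of all genes tested, in the 3 KO. The stalk has 3 genes, and its medians of 0.45, 0.68 and 0.84 are the highest of the lists shown.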

How the data were processed

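RNA of 12 samples (3 per group) was sequenced. Per the study's methods, the authors aligned adapter-trimmed reads with TopHat2, counted them on known transcripts and compared groups with edgeR; versions, genome build and the handling of strand and of reads with several matches are not given in the sources used here. The authors deposited 1 table per KO with RPKM values for the 6 libraries, the control values being the same in all 3 tables. Group means, fold changes and p-values of the authors' own comparison are also in the tables and were not used.

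The ratios of RPKM values gave back whole read numbers for 14851 of 14851 genes (tolerance 0.001 reads) and with them the totals and lengths, 20 genes having no reads. Replicates differed by more than counting noise, with a chi-square of at least 8.66 per degree of freedom (Atg5 KO replicates 1 and 2), and each was counted as a sample. Whether those come from separate cultures cannot be read from this. Genes that reached 0.5 RPKM in 3 or more libraries of a comparison entered limma 3.58.1 (R 4.3.3) on log2(RPKM + 0.5), with a trend in the empirical Bayes step, in the 6 libraries of each KO and control, or in all 12 for differences between KO cells. Fold changes are on that scale and understate those of low genes. P-values were adjusted over all genes (Benjamini-Hochberg). A gene passed where the adjusted p was 0.1 or less, and the threshold of 1 on the log2 fold change follows the study. An exact permutation test of 3 against 3 libraries cannot go below p = 0.1 and was not used. The test was checked on simulated data, in which the smallest changes set did not pass in any KO. Changes of 1 on the log2 scale did not pass there in Fip200 KO either.

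Members, gene lists and tests were chosen with earlier results of these data known. Named members are, per KO, the 3 lowest and 3 highest fold changes and those past both thresholds, the 3 highest and lowest levels, and members with known roles or paralogs. Rpl30, Rps27, Rps15a and Rps20 levels and the named genes of the pathway lists were chosen after their values were seen. Limma-voom on the recovered reads was added after seeing the data. Figures were drawn with matplotlib 3.10.9 in Python 3.11.15. Some members that the rule names are not reported here.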

Additional observations from a re-analysis of the deposited data

Results flagged for a closer look

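The Atg5 KO and Atg7 KO libraries of Rps4x lay on opposite sides of its control mean. The log2 fold change was −0.17 in Atg5 KO and 0.15 in Atg7 KO against control, and neither passed. The difference between these KO cells was 0.32 (95% interval −0.30 to 0.94, limma adjusted p = 1 after rounding), so the test of the difference did not pass either. No group had enough libraries for a check of single outlying values.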

How the results depend on the processing

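Over the alternatives run, the median log2 fold change of the members against control stayed above 0 in each KO. The count of changed members moved more. In Fip200 KO it was 1, and 0 with a filter of 2 RPKM in every library, 0 with a term for the prefix of the library name, 3 with all 12 libraries in 1 fit and 0 to 3 without 1 library. In Atg5 KO it was 49, and 23 with all 12 libraries in 1 fit, 3 with the prefix and 32 to 57 without 1 library. In Atg7 KO it was 39, and 0 with the prefix and 4 to 48 without 1 library. Between KO cells it was 0, and 0 to 3 (Atg5 KO against Fip200 KO) and 0 to 14 (Atg7 KO against Fip200 KO) without 1 library. With the replicate number as a block (replicate block) the counts were 0 (Fip200 KO), 39 (Atg5 KO) and 19 (Atg7 KO). In that order, 0.11%, 18.2% and 6.69% of all genes were higher in these fits and 0.678%, 15.4% and 9.4% were lower. Same-numbered libraries of a KO and control correlated at −0.218 to 0.077 in their deviations, so the numbers do not pair them. The pseudocount, the scaling, the trend and limma-voom kept the 3 counts within 1.5 times. Low read numbers limit Rpl30, Rpl34, Rps27, Rpl37rt and Rps4l.

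Of 96 named log2 fold changes, 18 changed sign in some setting, none of them past the threshold as reported. With the prefix as a term they became 0.12 (Rpl37rt) and −0.0053 (Rpl5) in Fip200 KO, −0.0053 (Rpl36al) and −0.20 (Rpl37rt) in Atg5 KO, and 0.66 (Rpl34), −0.10 (Rpl37rt), −0.054 (Rpl39), −0.056 (Rpl5) and −0.15 (Rps14) in Atg7 KO. Median-of-ratios scaling gave −0.025 for Rpl37rt in Atg5 KO, and quantile normalization 0.19 for Rpl34 and −0.016 for Rpl39 in Atg7 KO. Without 1 library, the Fip200 KO values ranged from −0.046 to 0.36 (Rpl23), −0.47 to 0.10 (Rpl36a), −0.44 to 0.13 (Rpl36al), −0.090 to 0.19 (Rpl5), −0.27 to 0.31 (Rps14), −0.12 to 0.17 (Rps19), −0.42 to 0.016 (Rps27) and −0.035 to 0.25 (Rps3). The Atg5 KO values ranged from −0.20 to 0.19 (Rpl37rt), −0.18 to 0.031 (Rps14) and −0.36 to 0.077 (Rps27), and the Atg7 KO values from −0.11 to 0.026 (Rpl34), −0.099 to 0.29 (Rpl37rt) and −0.14 to 0.21 (Rpl39). The cause was not tested.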
